A study of Mus musculus with 8 samples.

Results

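The 10 genes described here are Nfe2l2, which encodes the transcription factor Nrf2, and 9 of its oxidant-defence and glutathione targets: Gclc, Gclm, Slc7a11, Txnrd1, Srxn1, Nqo1, Osgin1, Cat and Gsr. They were picked by gene symbol, and all 10 were found among the 17823 genes of the deposited count table. RNA sequencing was carried out on macrophages that carried a tdT reporter of the cytokine gene Il19, with 4 tdT-positive and 4 tdT-negative libraries; both sets carry the replicate numbers 1 to 4, given as biological replicates. All libraries shared the C57BL/6 strain, 7 days of growth from bone marrow in M-CSF (20 ng, the macrophage growth factor), and treatment with 1 µg/ml of LPS, a bacterial outer-membrane component from Escherichia coli that activates macrophages. How the reporter was built, how positive and negative cells were separated, the age of the mice and the time in LPS are details not given in the sources used. The question is how cells with the Il19 reporter signal compare with cells without it.

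Nrf2 is held at a low level because Keap1, an adaptor of the Cul3 ubiquitin ligase, marks it for destruction. Oxidants and electrophiles modify Keap1, after which Nrf2 accumulates, pairs with small Maf proteins and binds antioxidant response elements, sites that the repressor Bach1 can also occupy. In macrophages given LPS, the metabolite itaconate is among the electrophiles known to act on Keap1. The targets import cystine, make glutathione from it, recycle oxidised glutathione and thioredoxin, and remove peroxides and quinones.

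The libraries held between 49850537 and 58516454 counts, and the lowest count of any of the 10 genes in a library was 258, for Nqo1. Levels are CPM, which are library-scaled counts (trimmed mean of M values, TMM); a mean carries its SD over the 4 libraries of a group. A log2 fold change has tdT positive on top and is followed by its standard error (SE). Il19 itself had 185 ± 36.6 CPM in tdT-positive, against 11.98 ± 3.45 CPM in tdT-negative libraries, in accord with the group labels. Lyz2, the most abundant macrophage marker per length, had 5663 ± 647 CPM in tdT-positive, against 6210 ± 2536 CPM in tdT-negative libraries. The 10 macrophage markers summed to between 14702 and 19266 CPM in tdT-positive and between 12399 and 22196 CPM in tdT-negative libraries. With the block described next, 2 of the 10 rose and none fell, where 8.03% of all genes tested rose and 7.81% fell. Without numbers 1 to 4 in turn, 2, 1, 2 and 2 of these markers rose and none fell. With library totals alone or the DESeq2 Wald test, each with the block, 2 rose and 1 fell. In tdT-positive replicate 3 the ribosomal RNA gene Rn45s took 12.3% of counts, against at most 0.734% in the other libraries.

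When libraries of the same number were compared, tdT-positive macrophages held more transcript of Nfe2l2 and of 6 of the 9 targets picked here, by modest amounts; without that pairing none of the 10 genes passed. With the replicate number as a block, 7 of the 10 genes rose and none fell: Gclc and Cat by 1.43 and 1.38 times, and Nqo1, Osgin1, Nfe2l2, Slc7a11 and Gclm by 1.24 to 1.30 times. Srxn1, Txnrd1 and Gsr were measured at 1.19, 1.16 and 1.09 times and did not pass. Among all 12610 genes tested, 8.03% rose and 7.81% fell in this fit (15.8% in all), which gave the 10 genes a median log2 fold change of 0.34 beside 0.01 over all genes. Of the 10 genes, 9 were higher in tdT-positive libraries in all 4 numbers, against 21.9% of all genes tested, and none was lower in all 4, against 19.6%. In bulk RNA, more transcript per cell and more cells that carry it cannot be told apart.

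In the fit without the block, which was planned as the main test, none of the 10 genes passed. Their adjusted p was between 0.253 and 0.796 (edgeR's quasi-likelihood test, Benjamini-Hochberg), and 3 of all genes passed, or 0.0238%. At an unadjusted p under 0.05 that fit held Nfe2l2 alone of the 10 genes, as higher, beside 7.51% of all genes, and the DESeq2 Wald test and limma voom without the block also passed none. With the block, leaving out both libraries of number 1, 2, 3 or 4 left 3, 1, 2 and 9 of the 10 genes passing. Over all genes tested, 1023 of 12802, 347 of 12575, 355 of 12685 and 2535 of 12537 passed there. Cat passed in each of these 4 fits, and the median log2 fold change of the 10 genes stayed between 0.32 and 0.37. When libraries were scaled by their totals alone, Gclc and Cat passed and the other 8 did not, and the share of higher genes among all calls was 29.8%, against 50.7% under TMM scaling. Leaving Rn45s and Lars2 out of those totals, an alternative chosen after seeing the data, gave 6 of the 10.

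**Figure D1:**
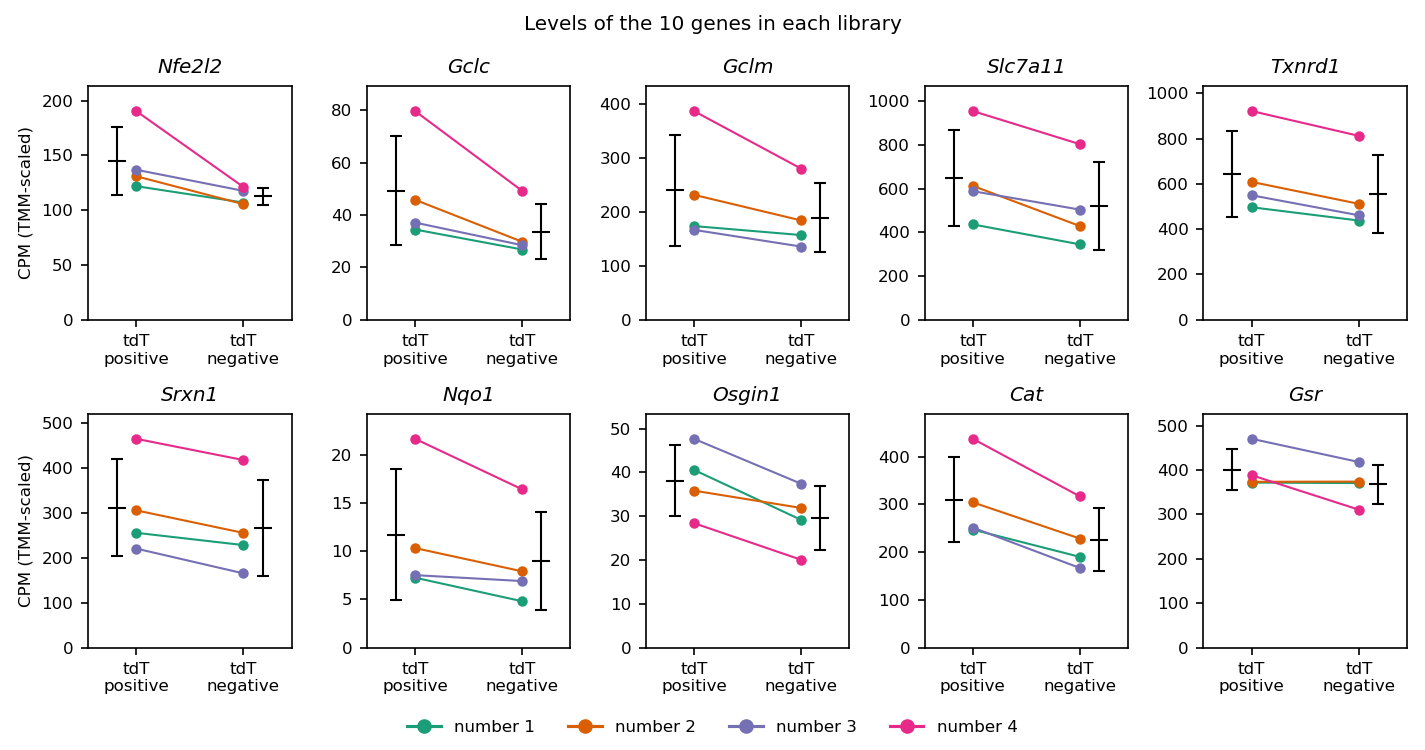
TMM-scaled CPM of each gene (vertical axes, from 0) in tdT-positive and tdT-negative libraries; lines join libraries with the same number and black bars are means ± SD (n = 4). Number 4 is highest in both groups for Nfe2l2, Gclc, Gclm, Slc7a11, Txnrd1, Srxn1, Nqo1 and Cat, and lowest in both for Osgin1.

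Nfe2l2 (Entrez 18024) lies on chromosome 2 at 75675513 to 75704663 of GRCm38. It had 122, 131, 137 and 190 CPM in tdT-positive replicates 1 to 4, against 107, 105, 118 and 121 CPM in the like-numbered tdT-negative replicates. Its groups did not overlap, which held for tdT positive above tdT negative in 5.46% of all genes tested. Nfe2l2 was the only one of the 10 genes without overlap, although tdT-positive replicate 1 lay only just above tdT-negative replicate 4. Nfe2l2 rose by 0.34 on the log2 scale (SE 0.09, adjusted p = 0.0384 with the block). By number the log2 ratio was 0.19, 0.31, 0.22 and 0.65 in numbers 1 to 4, so that number 4 had the widest gap. Without numbers 1, 2 and 3 the adjusted p was 0.0709, 0.127 and 0.0754.

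The promoter windows of these genes are shown because Nrf2 acts through short sites near its targets. RefSeq windows of 300 bases (GRCm38.p6, 250 before and 50 after the transcript start) were matched for 8 of the 10 genes, all but Gclc and Gsr, with 3 windows for Txnrd1. The core of the antioxidant response element was searched as TGACNNNGC on both strands, where N is any base. It occurred in 4 of the 8 genes (Nfe2l2, Gclm, Txnrd1 and Srxn1), and in 14.0% of all 27025 genes with a window. In Txnrd1 the match was in 1 of the 3 windows, at chr10:82858956-82859255, which lies inside the gene bounds given below. A gene with more windows has more chances of a match. A second form, TGANTCAGC, which contains the AP-1 site TGANTCA (8.97% of all genes), was added after the windows had been seen. It occurred in Srxn1 and Osgin1, and in 1.37% of all genes. Either form was present in 5 of the 8 genes, against 14.7% of all genes. The windows that follow are on the strand of the gene, 5′ to 3′, with matches to TGACNNNGC or TGANTCAGC on either strand in capitals. They lie at chr3:122245307-122245606 (plus), chr2:152105274-152105573 (plus) and chr8:119436897-119437196 (plus).
Gclm: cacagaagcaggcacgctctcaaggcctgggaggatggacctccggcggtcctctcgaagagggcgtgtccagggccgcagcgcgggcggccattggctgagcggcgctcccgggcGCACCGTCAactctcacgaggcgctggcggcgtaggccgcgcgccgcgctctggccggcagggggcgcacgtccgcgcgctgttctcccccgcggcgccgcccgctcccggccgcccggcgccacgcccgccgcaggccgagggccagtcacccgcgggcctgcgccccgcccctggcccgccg
Srxn1: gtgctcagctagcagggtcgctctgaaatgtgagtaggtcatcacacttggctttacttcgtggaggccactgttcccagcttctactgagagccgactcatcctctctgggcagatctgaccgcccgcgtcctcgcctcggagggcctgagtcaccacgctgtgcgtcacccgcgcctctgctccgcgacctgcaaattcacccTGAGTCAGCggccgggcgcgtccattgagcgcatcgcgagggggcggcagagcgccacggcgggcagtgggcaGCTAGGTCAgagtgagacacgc
Osgin1: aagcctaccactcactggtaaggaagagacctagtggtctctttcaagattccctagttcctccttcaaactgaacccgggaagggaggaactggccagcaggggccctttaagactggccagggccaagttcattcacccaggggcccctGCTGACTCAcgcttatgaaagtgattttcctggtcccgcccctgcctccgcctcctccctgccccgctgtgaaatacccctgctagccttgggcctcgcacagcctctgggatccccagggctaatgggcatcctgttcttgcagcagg
In Nfe2l2 the match begins 240 bases before the start, and in Gclm 134 bases before it, on the opposite strand. Srxn1 holds TGAGTCAGC from 45 bases before the start and a core match after it, and Osgin1 holds its match, on the opposite strand, from 99 bases before. These are matches of letters, not measured sites, and the windows of Slc7a11, Nqo1 and Cat hold none. The windows of Osgin1 and of Slc7a11 (chr3:50443564-50443863, minus) lie inside the gene bounds given below, not at their outer 5′ end. The outer 5′ ends of these genes were not searched.

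Of the genes of glutathione supply and recycling, Gclc, Gclm and Slc7a11 rose and Gsr did not pass. Gclc (Entrez 14629, chromosome 9, 77754535 to 77794489) encodes the catalytic subunit of glutamate-cysteine ligase, the rate-limiting enzyme of glutathione synthesis. It had 34.5, 45.8, 37.1 and 79.7 CPM in tdT-positive replicates 1 to 4, against 26.8, 29.8, 28.5 and 49.2 CPM in the matching tdT-negative replicates. The groups overlapped because tdT-negative replicate 4 lay above tdT-positive replicates 1, 2 and 3, but Gclc was higher in 4 of 4 numbers. Its log2 fold change, 0.52 (SE 0.08, adjusted p = 0.0109), had the largest size of the 10, and it missed the threshold without number 2 (adjusted p = 0.0561).

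Gclm (Entrez 14630, chromosome 3, 122245487 to 122267215) encodes the modifier subunit of the same enzyme. It had 174, 232, 167 and 387 CPM in tdT-positive, against 157, 184, 136 and 280 CPM in tdT-negative replicates 1 to 4. The groups overlapped, with tdT-negative replicate 4 above all tdT-positive libraries but replicate 4, and the log2 fold change was 0.31 (SE 0.07, adjusted p = 0.0287). Without number 2 the adjusted p of Gclm was 0.117, and without number 3 it was 0.0730. Per length, Gclm transcript was 8.04 ± 0.434 times as abundant as Gclc in tdT-positive and 9.31 ± 1.00 times in tdT-negative libraries (SD, n = 4), with ranges of 7.43 to 8.37 and 7.89 to 10.2 that overlap. For numbers 1 to 4 the ratio was 8.34, 8.37, 7.43 and 8.03 with tdT positive, and 9.69, 10.2, 7.89 and 9.42 with tdT negative. It was lower in the tdT-positive library in all 4 numbers, and the difference was not tested.

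Slc7a11 (Entrez 26570, chromosome 3, 50364936 to 50499087) encodes the cystine and glutamate exchanger xCT that feeds glutathione synthesis. It had 436, 613, 588 and 955 CPM in tdT-positive, against 345, 429, 504 and 803 CPM in tdT-negative replicates 1 to 4. The 4 numbers differed from each other more than the groups did, and tdT-negative replicate 4 lay above 3 of the 4 tdT-positive libraries. The log2 fold change was 0.33 (SE 0.07, adjusted p = 0.0284), and the adjusted p was 0.0982, 0.144 and 0.0666 without numbers 1, 2 and 3. Slc3a2, which encodes the partner chain of xCT and of other transporters, had 802 ± 80.6 CPM in tdT-positive, against 745 ± 61.1 CPM in tdT-negative libraries and did not pass (adjusted p = 0.382).

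Gsr (Entrez 14782, chromosome 8, 33653238 to 33698162) encodes glutathione reductase, which returns oxidised glutathione to its reduced form. It had 372, 373, 470 and 388 CPM in tdT-positive, against 371, 374, 418 and 311 CPM in tdT-negative replicates 1 to 4. Numbers 1 and 2 were nearly level and numbers 3 and 4 higher in tdT-positive libraries, so Gsr was the only one of the 10 not higher in every number. The log2 fold change was 0.12 (SE 0.08, adjusted p = 0.305 with the block).

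**Figure D2:**
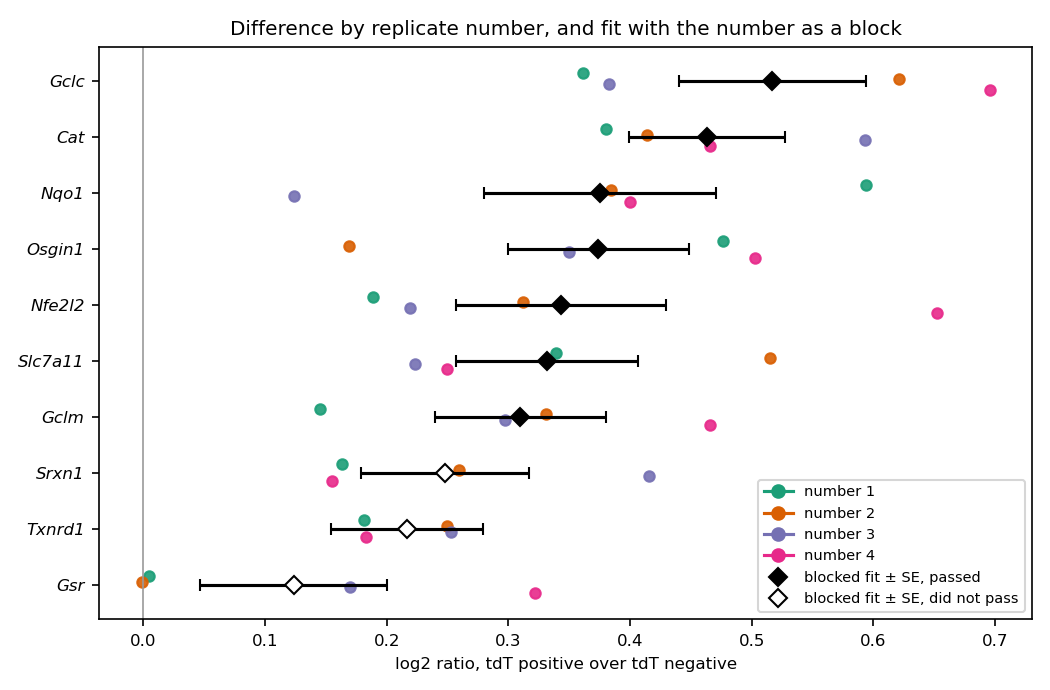
Log2 ratio of tdT-positive over tdT-negative CPM for each gene by replicate number (coloured points), with the log2 fold change of the blocked fit ± SE (diamonds, filled where the adjusted p was under 0.05). All points but that of Gsr in number 2 lie above 0; Gclc has the highest fitted value, 0.52, and Gsr the lowest, 0.12.

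Among the genes of peroxide and thiol enzymes, Cat rose and Txnrd1 and Srxn1 did not pass. Cat (Entrez 12359, chromosome 2, 103453904 to 103485153) encodes catalase, the peroxisomal enzyme that breaks down hydrogen peroxide. It had 247, 304, 252 and 438 CPM in tdT-positive, against 190, 228, 167 and 317 CPM in tdT-negative replicates 1 to 4. The groups overlapped through tdT-negative replicate 4, and the ratios by number were close to each other, at 1.30, 1.33, 1.51 and 1.38. It rose by a log2 value of 0.46 (SE 0.06, adjusted p = 0.00957), the smallest adjusted p of the 10 genes. Cat passed under all 11 alternatives to the blocked fit, with a log2 fold change between 0.39 and 0.50 and an adjusted p of at most 0.0493.

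Txnrd1 (Entrez 50493, chromosome 10, 82833951 to 82897724) encodes the selenoprotein thioredoxin reductase of the cytosol. It had 497, 609, 550 and 922 CPM in tdT-positive, against 438, 512, 461 and 812 CPM in tdT-negative replicates 1 to 4. Its ratios by number were the most even of the 10 genes, at 1.13, 1.19, 1.19 and 1.13, and the log2 fold change of 0.22 (SE 0.06) had an adjusted p of 0.0578. It passed under the blocked DESeq2 Wald test (adjusted p = 0.00112), under blocked limma voom (adjusted p = 0.0460) and without number 4 (adjusted p = 0.0376).

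Srxn1 (Entrez 76650, chromosome 2, 152105524 to 152111376) encodes sulfiredoxin, which repairs over-oxidised peroxiredoxins, and its window above holds both motif forms. It had 255, 305, 220 and 464 CPM in tdT-positive, against 228, 255, 165 and 417 CPM in tdT-negative replicates 1 to 4. The groups overlapped, and the log2 fold change was 0.25 (SE 0.07, adjusted p = 0.0519). Srxn1 passed under the blocked DESeq2 Wald test (adjusted p = 0.00744), blocked limma voom (adjusted p = 0.0454) and without number 4 (adjusted p = 0.0255).

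Nqo1 (Entrez 18104, chromosome 8, 107388225 to 107403205) encodes a quinone reductase that is often used as a readout of Nrf2. It had the lowest level of the 10, with 7.25, 10.3, 7.51 and 21.7 CPM in tdT-positive, against 4.80, 7.91, 6.90 and 16.4 CPM in tdT-negative replicates 1 to 4. Number 4 stood well above the others in both groups. Nqo1 rose by 0.38 on the log2 scale (SE 0.10, adjusted p = 0.0396), and the adjusted p was 0.138, 0.169 and 0.0589 without numbers 1, 2 and 3.

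Osgin1 (Entrez 71839, chromosome 8, 119425882 to 119446257) encodes a growth inhibitor induced by oxidative stress. It had 40.6, 35.8, 47.7 and 28.4 CPM in tdT-positive, against 29.2, 31.9, 37.4 and 20.1 CPM in tdT-negative replicates 1 to 4. The groups overlapped, and here number 4 was the lowest in both groups, the reverse of its place in most of the other genes. Osgin1 rose by 0.37 on the log2 scale (SE 0.07, adjusted p = 0.0198), and the adjusted p was 0.0796, 0.0519 and 0.0694 without numbers 1, 2 and 3.

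Apart from Nfe2l2, the replicate number took a larger share of the sum of squares than the reporter did. The number splits the libraries into more sets than the reporter does, so part of that contrast is fixed by the design. Of the sum of squares of log2 CPM over the 8 libraries, the number accounted for 40.4% in Nfe2l2 and 67.2% to 91.4% in the other 9 genes, and the group for 46.2% in Nfe2l2 and 7.26% to 31.7% in the others. The medians were 77.7% for the number and 14.1% for the group over the 10 genes, and 62.3% and 14.0% over all genes tested. Nqo1 differed by 3.18 times between the number with the highest mean and the one with the lowest, Srxn1 by 2.31 times and Slc7a11 by 2.26 times. Number 4 had the highest mean for Nfe2l2, Gclc, Gclm, Slc7a11, Txnrd1, Srxn1, Nqo1 and Cat, whereas the mean of Osgin1 and of Gsr was lowest there and highest in number 3. The median log2 ratio of the 10 genes was 0.26, 0.32, 0.27 and 0.43 in numbers 1 to 4, beside -0.02, 0.00, -0.00 and 0.06 over all genes.

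As a description over libraries that share replicate numbers, Pearson's r of log2 CPM was 0.98 between Txnrd1 and Nqo1, 0.97 between Gclm and Srxn1 and 0.95 between Gclc and Gclm. Osgin1 and Gsr had r = 0.85 with each other. With the other 8 genes, Osgin1 had r between -0.65 (Srxn1) and 0.01 (Nfe2l2), and Gsr between -0.58 (Srxn1) and 0.22 (Nfe2l2). Among 9200 other genes whose log2 CPM averaged 2 or more, the 5 most like Gclc were Fam102b (r = 0.99), Eif2ak4 (r = 0.99), Dnajb4 (r = 0.98), Lrrc45 (r = 0.98) and Lrp8 (r = 0.98). Eif2ak4 encodes Gcn2, the kinase that senses amino acid shortage, and Dnajb4 a heat shock co-chaperone. Of the other 9 genes, Cat stood highest in that order, at place 30 (r = 0.96), and Txnrd1 and Gclm at places 36 and 43.

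Per kilobase of the gene length in the deposited table, the order of levels ran over a wide range. Txnrd1 averaged 149 CPM per kb (libraries 109 to 229) and Gsr 144 (116 to 176). Cat averaged 105 (65.4 to 172), Gclm 104 (65.5 to 187) and Srxn1 103 (58.7 to 165), and these 5 genes overlapped in their ranges over libraries. Slc7a11 averaged 63.3 (37.4 to 103) and Nfe2l2 33.8 (27.6 to 49.9). Osgin1 at 17.3 (10.2 to 24.3), Gclc at 12.1 (7.83 to 23.3) and Nqo1 at 6.67 (3.09 to 14.0) were lowest. Each gene overlapped its neighbour in this order, except that Osgin1 lay below Nfe2l2 in every library. The transcript of the catalytic subunit of glutamate-cysteine ligase was thus measured well below those of its modifier subunit and of the recycling enzymes. Protein was not measured.

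**Figure D3:**
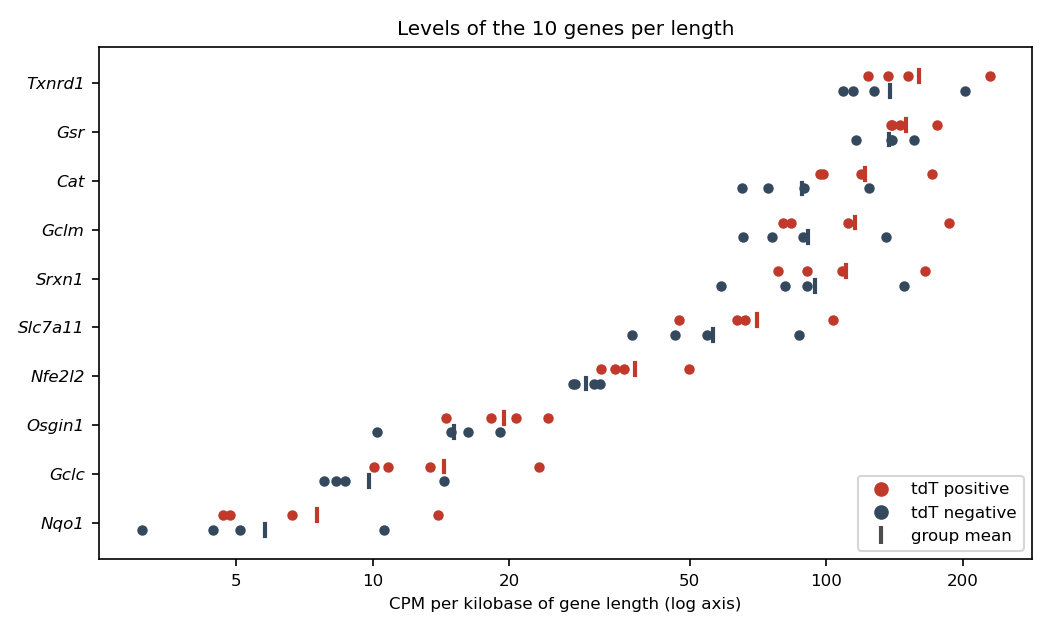
CPM per kilobase of gene length (horizontal log axis) of each gene in the tdT-positive (upper row, red) and tdT-negative (lower row, dark) libraries; vertical bars are group means. Txnrd1 and Gsr average 149 and 144 CPM per kb and Nqo1 6.67, while the groups overlap in every gene but Nfe2l2.

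Bach1, Mafg and Mafk, which act at the same sites as Nrf2, rose. Of 10 regulators and partners tested, 3 rose, none fell and 7 did not pass, where 8.03% of all genes tested rose and 7.81% fell. Bach1, the repressor that competes with Nrf2, had 68.1, 62.9, 62.4 and 64.6 CPM in tdT-positive, against 55.2, 46.6, 39.5 and 43.1 CPM in tdT-negative replicates 1 to 4. Its groups did not overlap, which held for tdT positive above tdT negative in 5.46% of all genes tested. Bach1 rose by 0.49 on the log2 scale (SE 0.07, adjusted p = 0.0109). The small Maf genes Mafg and Mafk rose by 0.24 (SE 0.05) and 0.21 (SE 0.06). Keap1, named after its value was seen, had 106 ± 11.7 CPM in tdT-positive, against 104 ± 19.9 CPM in tdT-negative libraries and did not pass (adjusted p = 0.694), nor did Sqstm1, an autophagy receptor that binds Keap1 and the most abundant gene of the list (692 ± 132 and 732 ± 245 CPM in the tdT-positive and the tdT-negative libraries). The median log2 fold change of the list was 0.04, and 1, 0, 1 and 3 of its genes rose without numbers 1, 2, 3 and 4, where 1 gene also fell without number 4.

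Most further Nrf2 targets did not pass. Of 14 tested, 2 rose, 1 fell and 11 did not pass, with a median log2 fold change of 0.09. The shares over all genes tested were 8.03% that rose and 7.81% that fell. Ptgr1, a reductase of reactive lipid products, rose by 0.54 (SE 0.11, adjusted p = 0.0190) and was at 101 ± 54.0 CPM in tdT-positive, against 68.0 ± 29.6 CPM in tdT-negative libraries. Akr1b8, an aldo-keto reductase gene, rose by 0.36 (SE 0.06, adjusted p = 0.0126), and both were highest in number 4 of each group. Ephx1, the microsomal epoxide hydrolase gene, fell by 1.07 (SE 0.16, adjusted p = 0.0112) at about 1.02 CPM in tdT-positive, against 2.17 CPM in tdT-negative libraries. Without number 1 or 2 neither Ptgr1 nor Akr1b8 passed, as no gene of the list rose there. Ephx1 did not pass without number 2, where no gene of the list fell. Fth1, the ferritin heavy chain gene and the most abundant of the list, was at 36817 ± 5005 and 35355 ± 9761 CPM in the tdT-positive and the tdT-negative libraries and did not pass, with near-identical copies that make its counts uncertain.

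Among the genes of the glutathione peroxidase, transferase and glutaredoxin families, Gpx1, Gpx4, Gpx7, Gpx8 and Glrx3 were lower in tdT-positive libraries. Of 22 glutathione peroxidase, transferase and glutaredoxin genes tested, 9 fell, none rose and 13 did not pass, with a median log2 fold change of -0.26. Over all genes tested, 7.81% fell and 8.03% rose. The count and the median of the list include genes with low counts in tdT-positive libraries, such as Gpx7 and Gpx8 below. Gpx1, the main cytosolic glutathione peroxidase gene, had 145, 170, 147 and 194 CPM in tdT-positive, against 200, 261, 210 and 266 CPM in tdT-negative replicates 1 to 4. Its groups did not overlap, which held for tdT positive below tdT negative in 747 of the 12610 genes tested. Gpx1 fell by 0.51 (SE 0.06, adjusted p = 0.00852). Glrx3, a glutaredoxin gene of iron handling, fell by 0.40 (SE 0.07, adjusted p = 0.0126) and was at 16.6 ± 2.04 and 21.9 ± 3.63 CPM in the tdT-positive and the tdT-negative libraries. Gpx8, a peroxidase gene of the endoplasmic reticulum, had 5, 10, 8 and 15 counts in tdT-positive, against 48, 108, 170 and 310 counts in tdT-negative replicates 1 to 4. It passed the filter on low counts through the tdT-negative libraries, so its fall is given as counts only. Gpx7, of the same compartment, fell by 1.47 (SE 0.29) at 0.347 CPM in tdT-positive, against 1.04 CPM in tdT-negative libraries. Its counts were also low, at 8, 19, 13 and 37 in tdT-positive, against 19, 33, 78 and 109 in tdT-negative replicates 1 to 4, which limits that value. Gpx4, which protects membrane lipids and was named after its value was seen, fell by 0.27 (SE 0.07, adjusted p = 0.0339). Glrx, the most abundant, did not pass (adjusted p = 0.662). Without numbers 1, 2, 3 and 4, 3, 2, 2 and 9 genes of the list fell and none rose. Where a gene needed 1 CPM in at least 4 libraries, 6 fell and the median log2 fold change of the list was -0.19.

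**Figure D4:**
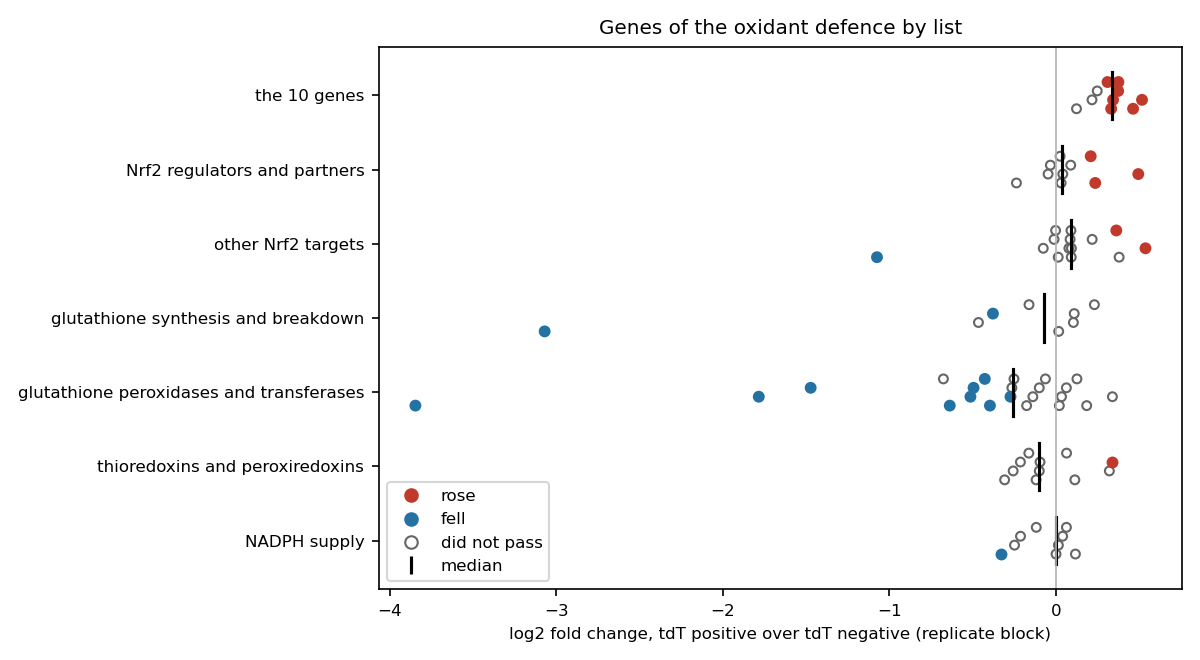
Log2 fold change with the replicate block (horizontal axis) of each gene tested in the 10 genes and 6 further lists; filled points passed an adjusted p under 0.05 and bars are medians. The 10 genes lie between 0.12 and 0.52, and the glutathione peroxidases and transferases have a median of -0.26 with 9 genes that fell, some of them at low counts.

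The remaining lists held few genes that passed, where 8.03% of all genes tested rose and 7.81% fell. Of 8 genes of glutathione synthesis and breakdown tested, 2 fell and 6 did not pass: Anpep, an aminopeptidase gene, by 0.38 (SE 0.07), and Cth, which makes cysteine from cystathionine. Cth had 5, 8, 4 and 10 counts in tdT-positive, against 10, 34, 34 and 296 counts in tdT-negative replicates 1 to 4. It passed the filter mostly through the tdT-negative libraries, replicate 4 above all, and where a gene needed 1 CPM in at least 4 libraries, 1 gene of this list fell. Of 11 thioredoxin and peroxiredoxin genes, Prdx6 alone passed and rose, by 0.34 (SE 0.06, adjusted p = 0.0153), with 217, 261, 282 and 341 CPM in tdT-positive, against 160, 206, 224 and 286 CPM in tdT-negative replicates 1 to 4. Prdx5, the most abundant of these per length, did not pass (adjusted p = 0.774). Of 9 genes of NADPH supply, Pgls, of the pentose phosphate pathway, fell by 0.33 (SE 0.07, adjusted p = 0.0271), and Pgd, the most abundant, did not pass (adjusted p = 0.737). Prdx6 did not pass without number 1, 2 or 3, nor did any gene of the NADPH list without number 2 or 3, and 1, 0, 1 and 3 genes of glutathione synthesis and breakdown fell without numbers 1 to 4 in turn.

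Stromal markers were lower in tdT-positive libraries, and tdT-negative replicate 4 stood apart in its stromal and osteoclast markers. Of 10 stromal markers tested, 8 fell and 2 did not pass, and their sum was 76.1, 148, 60.7 and 104 CPM in tdT-positive, against 249, 535, 554 and 2230 CPM in tdT-negative replicates 1 to 4. Of 7 osteoclast markers tested, 4 fell, and their sum was at most 326 CPM in tdT-positive libraries and reached 2817 CPM in tdT-negative replicate 4, where tdT-negative replicates 1 to 3 held 106 to 256 CPM. In numbers 1 and 3 that sum was higher in the tdT-positive library, at 125 and 326 CPM, against 106 and 256 CPM in the tdT-negative one. With numbers 1 to 4 left out in turn, 7, 5, 1 and 8 stromal and 4, 0, 0 and 5 osteoclast markers fell. Of 8 neutrophil markers tested, 3 rose and 4 fell, and of 8 monocyte markers 4 fell. Beside these marker counts, 8.03% of all genes tested rose and 7.81% fell. Without numbers 1 to 4 in turn, 1, 0, 2 and 3 neutrophil markers rose and 2, 0, 1 and 5 fell, and 4, 4, 2 and 5 monocyte markers fell. A marker high only in tdT-negative libraries can pass the filter on low counts through those libraries. Where a gene needed 1 CPM in at least 4 libraries, 7 stromal, 2 osteoclast, 3 neutrophil and 4 monocyte markers fell, and 2 neutrophil markers rose. The neutrophil markers summed to between 522 and 789 CPM in tdT-positive and between 176 and 864 CPM in tdT-negative libraries, with Elane and Prtn3 at 0 counts in all tdT-positive libraries and S100a8 the most abundant of the list per length. The monocyte markers summed to between 218 and 506 CPM in tdT-positive and between 355 and 601 CPM in tdT-negative libraries, and the erythroid markers to at most 0.0931 CPM in any library, with Hba-a1 and Hba-a2 at 0 counts in the tdT-positive ones. The neutrophil and the monocyte sums were lowest in number 4 in both groups. The part of these cells in the falls of Gpx7, Gpx8, Ephx1 and Cth and in the levels of the 10 genes was not tested. In number 4, where 8 of the 10 genes had their highest mean, the stromal and osteoclast sums were 104 and 298 CPM in the tdT-positive library, against 2230 and 2817 CPM in the tdT-negative one.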

How the data were processed

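Polyadenylated RNA of 8 samples was sequenced on a NextSeq 500 after a stranded library preparation from 220 ng of total RNA, per the labels' protocols. The deposited table holds raw counts per gene, made by the authors, with Entrez identifiers, symbols and gene lengths in bases; length is the only other deposited measure used here. The submitters' processing notes name STAR and mm10. Not given in the sources used here are their versions, the counter, the annotation and its use of strand, which leaves overlapping genes and close copies uncertain. Each column carries the identifier found in 1 sample's description, and titles give the groups.

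Genes were kept by edgeR's filterByExpr (version 4.0.16; count of 10, total of 15); 12610 remained, among them all of the 10 genes. TMM factors were 0.865 to 1.15. The quasi-likelihood test had group as the only term, or the replicate number as a block beside it, with p adjusted by Benjamini-Hochberg across the genes tested; an adjusted p under 0.05 passed. Any adjusted p or SE without another tool's name is from edgeR's blocked fit. The numbers pair the samples by a check on the data, not by a label. After removal of each group's mean log2 CPM, same-numbered libraries correlated by 0.63, 0.28, 0.62 and 0.56 for numbers 1 to 4. The libraries are given as biological replicates, but whether a number stands for 1 mouse, culture or day is not stated. The p-values cover only the spread among these libraries, part of which may be technical. Libraries of a group differed by a chi-square per degree of freedom of 54.0 to 759, so none repeats another.

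The 10 genes and all lists were chosen with earlier results of these data known, so the blocked fit is no independent evidence. The text names the 10 genes, Il19, from each pathway list up to 4 genes with the smallest p that passed and the most abundant one, and the 5 genes most like Gclc. Of the marker lists it names the most abundant gene or only the list's sum. Elane, Prtn3, Hba-a1 and Hba-a2 are named because they had 0 counts in the tdT-positive libraries. Coordinates and promoters are from RefSeq (GRCm38.p6). Coordinates were matched by Entrez identifier and promoter windows by gene symbol. The fit without the block was planned as the main test, and the replicate block as an alternative to it. Further alternatives were DESeq2 1.42.0, limma 3.58.1 voom, other scalings and filters, and leaving out libraries.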

Additional observations from a re-analysis of the deposited data

Results flagged for a closer look

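Chance puts about 1 in 20 groups of 4 libraries past the test used here for a library apart from the others of its group, and 2 of 20 groups of the 10 genes were past it. Gclc was at 49.2 CPM in tdT-negative replicate 4, far above the 26.8 to 29.8 CPM of the other 3 tdT-negative libraries. Gsr was at 470 CPM in tdT-positive replicate 3, above the 372 to 388 CPM of the other 3 tdT-positive libraries. That library is also the one with 12.3% of counts on Rn45s, and the part of this in the level of Gsr was not tested.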

How the results depend on the processing

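Without the replicate block, 0 of the 10 genes, 3 of all genes and 0 of the genes of the 6 further lists passed, and with the replicate block 7, 1998 and 19 did. In the unblocked fit the other settings left the 10 genes at 0; all genes passing numbered 216 with no filter and 921 under the DESeq2 Wald test, and list genes 1 and 8. Leaving out a library there gave 2 to 456 of all genes (456 without tdT-negative replicate 1, 225 without tdT-negative replicate 4), 0 of the 10 genes, and 0 to 3 list genes. The log2 fold change of Txnrd1, Srxn1 and Nqo1 turned to -0.016, -0.040 and -0.12 without tdT-positive replicate 4, and was at most 0.45, 0.52 and 0.83 when another library was left out; the cause was not tested. Without tdT-positive replicate 4 the median of the 10 genes was 0.10, against 0.35 with it, and Gclm, Slc7a11, Gclc, Cat and Nfe2l2 were at 0.0040, 0.063, 0.21, 0.24 and 0.20, while Osgin1 and Gsr were at 0.48 and 0.14. In the blocked fit, leaving out a number, which leaves fewer samples, gave 1023, 347, 355 and 2535 of all genes for numbers 1 to 4, 1 to 9 of the 10 genes and 2 to 23 list genes. Scaling by library totals gave 2 of the 10 genes, and the other 6 blocked settings 6 to 9; no blocked setting turned the sign of any of the 10. Depth was not limiting for the 10 genes, each with at least 258 counts in every library.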
